A study of Sus scrofa with 6 samples.

Results

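The let-7 family with miR-98 was followed in the jejunum, the middle stretch of the small intestine, of weaning and suckling piglets. A sequence belonged to the family when its read counts in all 6 libraries were those that the study's list of known swine miRNAs gives for a let-7 or miR-98 name with at least 20 reads. This gave 9 mature miRNAs (let-7a, let-7c, let-7d-5p, let-7d-3p, let-7e, let-7f, let-7g, let-7i and miR-98) among 533 distinct sequences in the libraries.

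All piglets were barrows (castrated males) of a Duroc x Yorkshire x Landrace cross. Libraries W1, W4 and W7 came from piglets that had been taken from the sow 1, 4 and 7 d before and fed a commercial diet. Libraries S1, S4 and S7 came from piglets still with their sow, 26, 29 and 32 d old, the same ages as W1, W4 and W7. Each library was made from 1 pool of jejunal RNA of 4 piglets, so every combination of feeding group and day has 1 library, the change of diet and the loss of the sow cannot be told apart, and the spread between piglets was not measured. The library total is the sum of the deposited counts with each sequence taken once, and lay between 4441416 and 4649143 in weaning libraries and between 4492667 and 5373146 in suckling libraries. It was 1.05, 0.945 and 0.988 times the number of clean reads (those left after adapter and quality filtering) in W1, W4 and W7, against 1.07, 1.09 and 1.09 times in S1, S4 and S7. A sum above the clean reads, as in W1 and all suckling libraries, needs some reads to be counted at more than 1 sequence, so the library total is a sum of counts and not a sequencing depth.

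Members of the let-7 family are small RNAs of about the same length that share a seed, the bases 2 to 8 with which a miRNA pairs to its target messages. In animals they are known for low levels in early embryos and stem cells and high levels in differentiated tissue, and for holding down proliferation genes such as HMGA2, MYC and RAS in mammals. The RNA-binding protein LIN28 blocks the maturation of their precursors, and mammals carry the family at many loci, several of them in clusters with miR-99, miR-100 and miR-125.

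The mature sequences are shown with bases 2 to 8 in capitals, because how nearly alike they are bears on the counts.
let-7a: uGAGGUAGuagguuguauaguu
let-7c: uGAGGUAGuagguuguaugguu
let-7d-5p: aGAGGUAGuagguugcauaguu
let-7e: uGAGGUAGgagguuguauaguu
let-7f: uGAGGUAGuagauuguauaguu
let-7g: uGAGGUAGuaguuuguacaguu
let-7i: uGAGGUAGuaguuugugcu
miR-98: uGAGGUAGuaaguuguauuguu
let-7d-3p: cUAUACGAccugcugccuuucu

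Of the 9 members, 8 carried the seed GAGGUAG, and the exception was let-7d-3p, the other arm of the let-7d hairpin, with the seed UAUACGA. Counted from 1 at the 5′ end, with the base of let-7a given first, let-7c differed from let-7a by A19G, let-7e by U9G and let-7f by G12A. These 3 pairs were the only ones of 28 pairs of seed-sharing members that stood 1 base apart. let-7d-5p differed by U1A and U16C, let-7g by G12U and U18C, and miR-98 by G11A and A19U. The let-7i entry was deposited with 19 bases, over which it differed from let-7a by G12U, A17G, U18C and A19U and from let-7g at 2 bases. No member differed from let-7a within the seed, let-7d-3p apart.

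**Figure D1:**
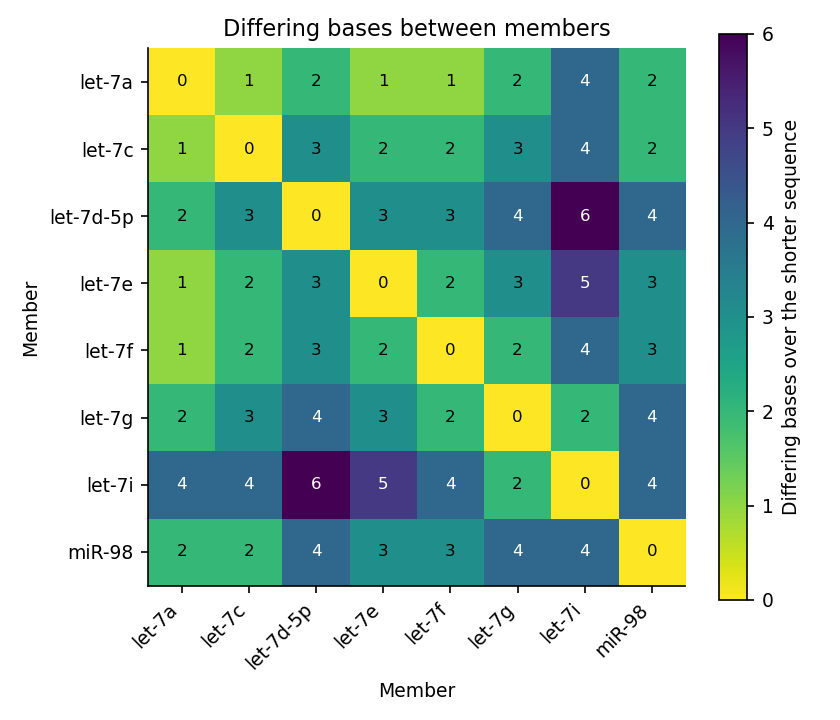
Number of differing bases between each pair of the 8 members that share a seed, over the length of the shorter sequence; rows and columns are members and the colour bar gives the count. let-7a lies 1 base from let-7c, let-7e and let-7f, whereas let-7i and let-7d-5p differ at 6 bases.

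Members this close are hard to tell apart by their reads. In the study's list of aligned reads, of which a shortened copy was used here, the exact let-7a read stood at let-7a with no mismatch and also at let-7c, let-7e and let-7f with 1 mismatch. The exact reads of let-7c, let-7e and let-7f each stood at let-7a as well, and so did the read listed first for let-7d. The exact reads of let-7g, miR-98 and let-7d-3p were listed at no other member, nor was the let-7i read, which carries 3 bases more than the deposited entry.
let-7i read: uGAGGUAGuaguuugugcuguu
let-7c read with 1 mismatch: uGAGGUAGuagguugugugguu
The last of these reads, which differs from let-7c by A17G and has the letters of mature let-7b of human and mouse, was listed at let-7c alone. The listed reads of let-7a, let-7c, let-7d-5p, let-7e and let-7f thus overlap, and their counts cannot be taken as separate measurements. let-7g and let-7i had 1 listed read in common, not the exact read of either, and miR-98 and let-7d-3p had none in common with another member. The sources used here do not say how a read listed at several members was counted, and the library totals above show double counting somewhere in the tables without showing at which sequences.

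In the current RefSeq annotation of the pig (Sscrofa11.1, a later assembly than the one used by the authors), 10 let-7 and miR-98 loci were named. MIRLET7A-2, MIRLET7D and MIRLET7F-2 lay within 100 kb of one another, and MIR98 lay next to MIRLET7F-1. MIRLET7A-1 neighboured MIR100 and MIR125B-1, MIRLET7C neighboured MIR99A, and MIRLET7E neighboured MIR99B and MIR125A. MIRLET7G had MIR135-1 beside it, and MIRLET7I was the only locus of the 10 with no annotated miRNA neighbour. The count tables hold 1 entry each for let-7a and let-7f, so the loci of these members were not resolved.

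Levels are given as CPM, the count in 1000000 counts of the library total, with no correction for length because a read spans the whole miRNA. In these bulk samples fewer cells of a type and less RNA per cell cannot be told apart. let-7a was the most abundant member and ranked 16th among all 533 sequences by reads summed over the libraries, and let-7f ranked 17th. let-7a stood at 10217, 12813 and 9489 CPM in W1, W4 and W7, against 7672, 7799 and 8524 in S1, S4 and S7. let-7f stood at 9384, 11724 and 8690 CPM in W1, W4 and W7, against 7019, 7101 and 7817 in S1, S4 and S7. The order of these 2 members was the same in every library, and the count of let-7a was between 1.09 and 1.10 times that of let-7f throughout, a near-constant ratio between 2 members whose listed reads overlap.

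let-7c and let-7e formed the next step, ranked 23rd and 24th. let-7c had 5366, 6183 and 4445 CPM in W1, W4 and W7, against 3848, 3848 and 4358 in S1, S4 and S7. let-7e had 4882, 5839 and 4340 CPM in W1, W4 and W7, against 3644, 3646 and 4060 in S1, S4 and S7. let-7c was above let-7e by 1.02 to 1.10 times in each of the 6 libraries, although the ranges of the 2 members overlap across libraries.

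let-7i and let-7g lay below them, ranked 33rd and 34th. let-7i had 2916, 3788 and 2845 CPM in W1, W4 and W7, against 2373, 2108 and 2510 in S1, S4 and S7. let-7g had 2935, 3055 and 2476 CPM in W1, W4 and W7, against 2461, 2290 and 2670 in S1, S4 and S7. This is the 1 place where the order of 2 neighbours changed between libraries, with let-7i above let-7g in W4 and W7 and below it in W1 and in all suckling libraries.

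let-7d-5p, miR-98 and let-7d-3p were the scarce members. let-7d-5p had 560.1, 686.7 and 520.1 CPM in W1, W4 and W7, against 424.9, 417.3 and 470.3 in S1, S4 and S7. miR-98 had 396.0, 582.8 and 404.6 CPM in W1, W4 and W7, against 399.8, 348.2 and 362.0 in S1, S4 and S7. let-7d-3p had 54.8, 81.3 and 58.3 CPM in W1, W4 and W7, against 46.5, 43.1 and 46.9 in S1, S4 and S7. W4 was the highest library for every member on this scale.

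**Figure D2:**
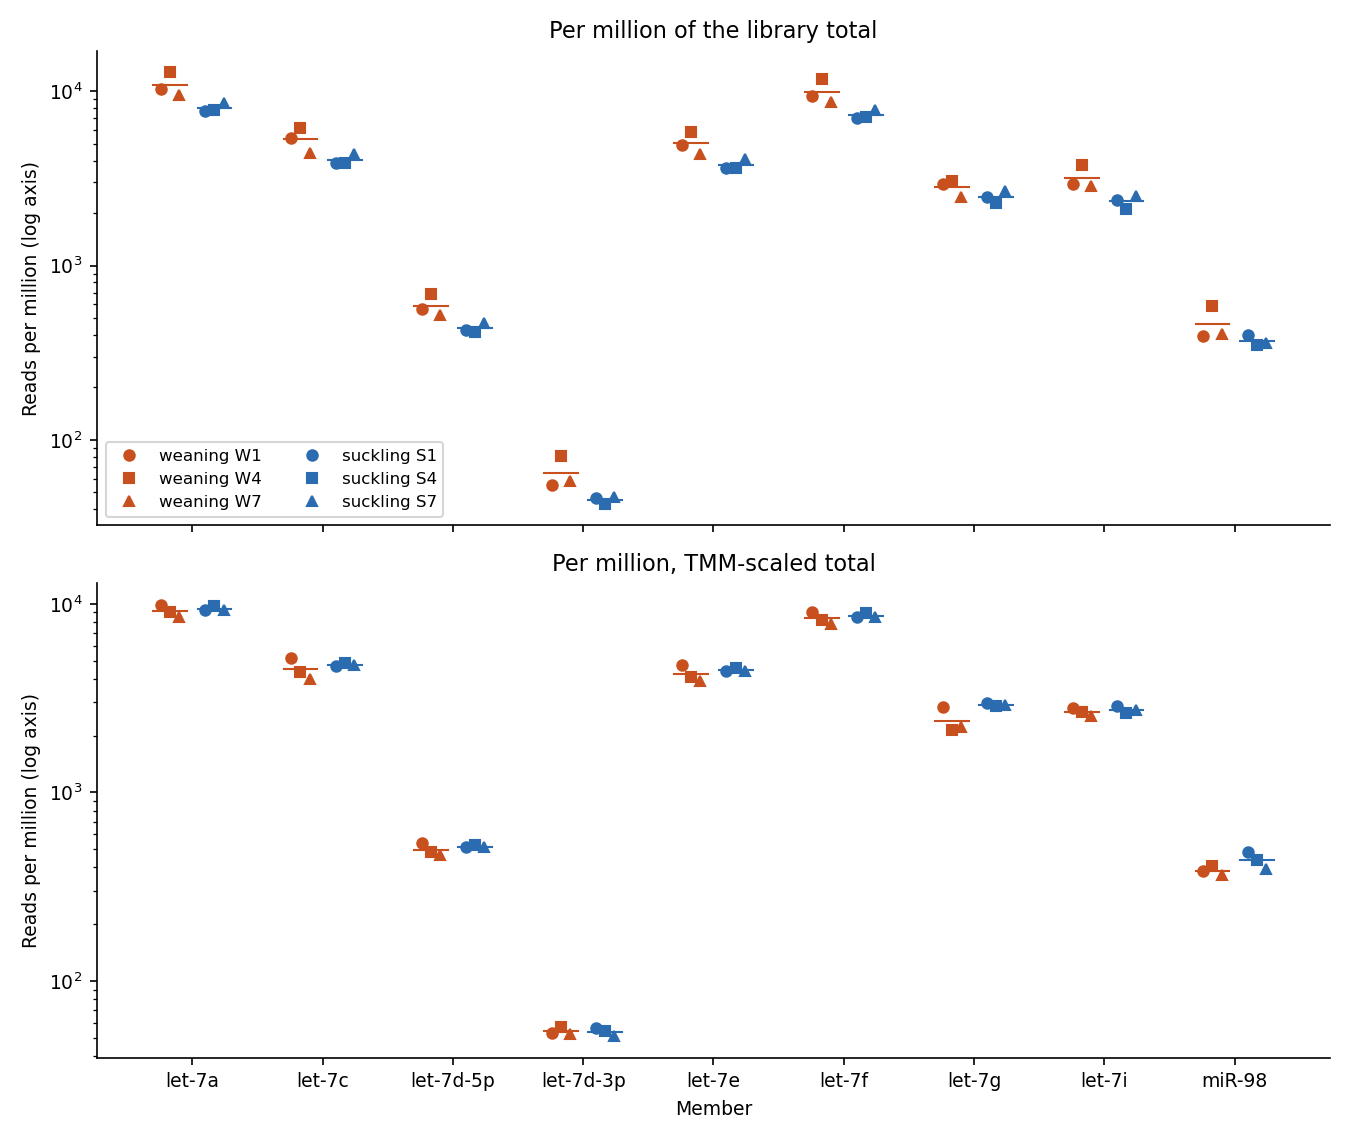
CPM of each member on a log axis, by library, with weaning libraries (orange, left) and suckling libraries (blue, right) and a short line at each group's mean; the upper panel divides by the library total and the lower panel by the TMM-scaled total. On the library total W4 is the highest library for all members, and on the TMM scale let-7g is the member whose groups do not overlap, with 2145 to 2834 in weaning and 2871 to 2975 in suckling libraries.

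On the library total all 3 weaning libraries stood above all 3 suckling libraries for 7 of the 9 members, and let-7g and miR-98 overlapped. That was also so for 44.5% of the 290 sequences tested, and 3.1% of them had all weaning libraries below, with 0 members among them. The library total itself moved: miR-143-3p, miR-192 and miR-215, the 3 sequences with the most reads, took 65.8%, 53.5% and 62.2% of W1, W4 and W7, against 71.6%, 72.8% and 67.5% of S1, S4 and S7. The TMM scale (trimmed mean of M values) is set by edgeR so that the bulk of sequences does not shift between libraries. On it 0 members stood above, beside 8.28% of all sequences, and 1 member, let-7g, stood wholly below, beside 10% of all sequences.

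The libraries of a day were compared first, to ask how the members stood at each time after weaning. Ratios are log2 values of weaning over suckling CPM on the library total, with 95% intervals that cover counting error only, since each library is a single pool and has no replicate check. At day 1, 0 of 9 members were at least 2-fold higher or lower in W1 than in S1, whereas among 229 sequences 6.11% passed 2-fold upward and 2.62% downward. The members' log2 ratios had a median of 0.40, beside 0.28 for all sequences. let-7c, with 24946 reads in W1 and 17288 reads in S1, had the highest ratio at 0.48 (interval 0.45 to 0.51). miR-98, with 1841 reads in W1 and 1796 reads in S1, had the lowest at -0.014 (interval -0.11 to 0.081). let-7g was at 0.25 (interval 0.22 to 0.29) and let-7i at 0.30 (interval 0.26 to 0.33), so these 2 differed little from each other and lay near the median of all sequences.

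At day 4, 0 of 9 members reached 2-fold in W4 against S4, whereas among 244 sequences 33.6% passed it upward and 2.87% downward. The members ranged from 0.42 to 0.91 on the log2 scale with a median of 0.72, beside 0.83 for all sequences. let-7d-3p, with 366 reads in W4 and 229 reads in S4, was highest at 0.91 (interval 0.67 to 1.16). let-7i, with 17059 reads in W4 and 11200 reads in S4, followed at 0.85 (interval 0.81 to 0.88). let-7g, with 13759 reads in W4 and 12165 reads in S4, was lowest at 0.42 (interval 0.38 to 0.45), and only 16.8% of sequences had a lower ratio. At a threshold of 1.5-fold 8 members were higher in W4, all but let-7g, beside 70.5% of all sequences.

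At day 7, 0 of 9 members reached 2-fold in W7 against S7, whereas among 237 sequences 6.75% passed it upward and 3.8% downward. The members ranged from -0.11 to 0.31 with a median of 0.15, beside 0.21 for all sequences. let-7g, with 10999 reads in W7 and 14346 reads in S7, was the only member below 0, at -0.11 (interval -0.14 to -0.073). let-7d-3p, with 259 reads in W7 and 252 reads in S7, was highest at 0.31 (interval 0.058 to 0.57). At 1.5-fold 0 members passed on day 1, where 18.3% of sequences were higher, or on day 7, where 24.1% were higher.

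TMM scaling moved all sequences of a pair by the same amount, and at days 4 and 7 the direction of most members depends on it. On the TMM scale the members' median log2 ratio was 0.075 at day 1, -0.12 at day 4 and -0.12 at day 7, beside -0.042, -0.011 and -0.061 for all sequences. let-7g was below 0 on each day on this scale, with log2 ratios of -0.070, -0.42 and -0.38 at days 1, 4 and 7. Its ratios at days 4 and 7 were the lowest of the 9 members, and the lowest at day 1 was that of miR-98 at -0.34.

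**Figure D3:**
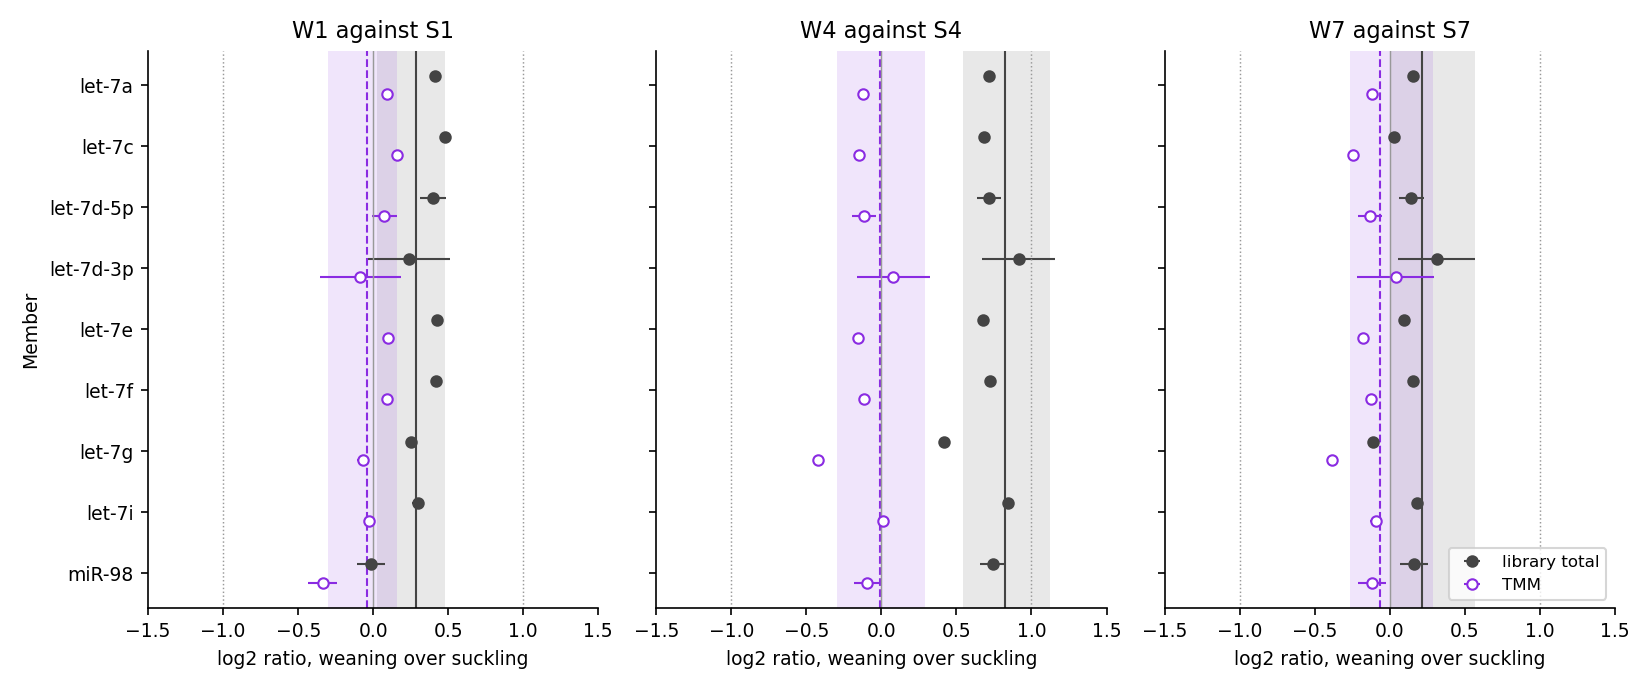
log2 ratio of weaning over suckling for each member at days 1, 4 and 7, on the library total (filled points) and on the TMM scale (open points), with 95% counting intervals; vertical lines and bands give the median and quartiles of all sequences and dotted lines mark 2-fold. No point passes 2-fold, and let-7g lies left of the bands at days 4 and 7, at 0.42 and -0.11 on the library total.

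The 3 weaning libraries were then set against the 3 suckling libraries with edgeR's quasi-likelihood test on TMM-scaled counts, where the spread within a group includes the difference between days. Of the 9 members 0 passed an adjusted p of 0.05 and 0 had an unadjusted p under 0.05, and of all 290 sequences 0% were called, with 44 at an unadjusted p under 0.05. DESeq2 called 0 members, beside 3.45% of all sequences (2 higher and 8 lower in weaning libraries). let-7g had the largest difference, with 2834, 2145 and 2221 TMM-scaled CPM in W1, W4 and W7, against 2975, 2871 and 2898 in S1, S4 and S7. Its log2 fold change was -0.28 (SE 0.13, edgeR adjusted p = 0.390), and the shift came from W4 and W7, with W1 close to the suckling range. miR-98 followed at -0.19 (SE 0.12, edgeR adjusted p = 0.561), and the groups of miR-98 overlapped.

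The other 7 members differed by -0.075 to 0.011 on the log2 scale in this fit, less than their standard errors of 0.097 to 0.13. let-7a averaged 9124 ± 688 TMM-scaled CPM in weaning libraries and 9434 ± 297 in suckling libraries (SD, n = 3 each). let-7i averaged 2675 ± 133 in weaning libraries and 2745 ± 114 in suckling libraries on the same scale (SD, n = 3 each). With the library total in place of TMM, which moved the median of all sequences by 0.49 on the log2 scale, all 9 members were above 0, at 0.19 for let-7g to 0.51 for let-7d-3p. Then 7 of them had an unadjusted p under 0.05, as had 115 of all 290 sequences, and 0 passed after adjustment, beside 0.345% of all sequences called.

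Each weaning library was also set against the 3 suckling libraries in a fit that takes its spread from the suckling libraries and assumes that the lone library varies as they do. These 3 comparisons share their control libraries. For W1, neither edgeR nor DESeq2 called any member or any other sequence. For W4, edgeR called 0 members, beside 2.76% of all sequences, and for W7 it called 0 members, beside 1.72%. let-7g was the only member with an unadjusted p under 0.05 in W4 and in W7, and DESeq2 called it in neither, beside 4.48% of all sequences called in W4 and 7.59% in W7. Its log2 fold change was -0.44 in W4 (SE 0.12, edgeR adjusted p = 0.191) and -0.39 in W7 (SE 0.12, edgeR adjusted p = 0.142). In W1 it was -0.040 (SE 0.11, edgeR adjusted p = 0.957).

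The W4 result of the other members rests on the scaling. With the library total in place of TMM, 8 of the 9 members were called higher in W4, all but let-7g, beside 50.7% of all 290 sequences called higher. Under that scaling let-7g was at 0.30 in W4 (SE 0.18, edgeR adjusted p = 0.163), again the lowest of the members.

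A ratio of 2 counts in the same library does not depend on any scaling, so the members were also compared with each other within libraries. let-7i and let-7g, whose exact reads were listed at neither the other nor any further member, had a ratio of 0.994, 1.24 and 1.15 in W1, W4 and W7, against 0.964, 0.921 and 0.940 in S1, S4 and S7. All weaning libraries thus stood above all suckling libraries, by 0.25 on the log2 scale on average (exact permutation test, two-sided, p = 0.1, the smallest that 3 against 3 libraries allow). By day, the ratio of W1 to S1 was 1.03 (95% counting interval 0.994 to 1.07), that of W4 to S4 was 1.35 (1.30 to 1.39) and that of W7 to S7 was 1.22 (1.18 to 1.27). let-7i gained on let-7g at days 4 and 7 beyond counting error, and at day 1 the interval included no change.

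Over all 36 pairs of members, 7 had groups that did not overlap, a share close to the 20.3% of the 41905 pairs of all sequences. let-7g was in 6 of the 7, with let-7a, let-7c, let-7d-5p, let-7e, let-7f and let-7i, and since the listed reads of let-7a, let-7c, let-7d-5p, let-7e and let-7f overlap these are not 6 separate observations. The ratio of let-7a to let-7g was 3.48, 4.19 and 3.83 in W1, W4 and W7, against 3.12, 3.41 and 3.19 in S1, S4 and S7. The ratios of let-7d-3p and of miR-98 to let-7g overlapped between the groups. The remaining pair was let-7d-3p with miR-98, at 0.139, 0.139 and 0.144 in W1, W4 and W7, against 0.116, 0.124 and 0.130 in S1, S4 and S7.

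Set against all 289 other tested sequences, let-7g had non-overlapping ratios with 28.0% of them, beside a median of 15.7% over all sequences. The other 8 members had 14.5% to 20.4%. let-7g thus moved apart from more sequences than any other member did, and 82.8% of all sequences had a lower share than let-7g, so many sequences moved at least as far.

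**Figure D4:**
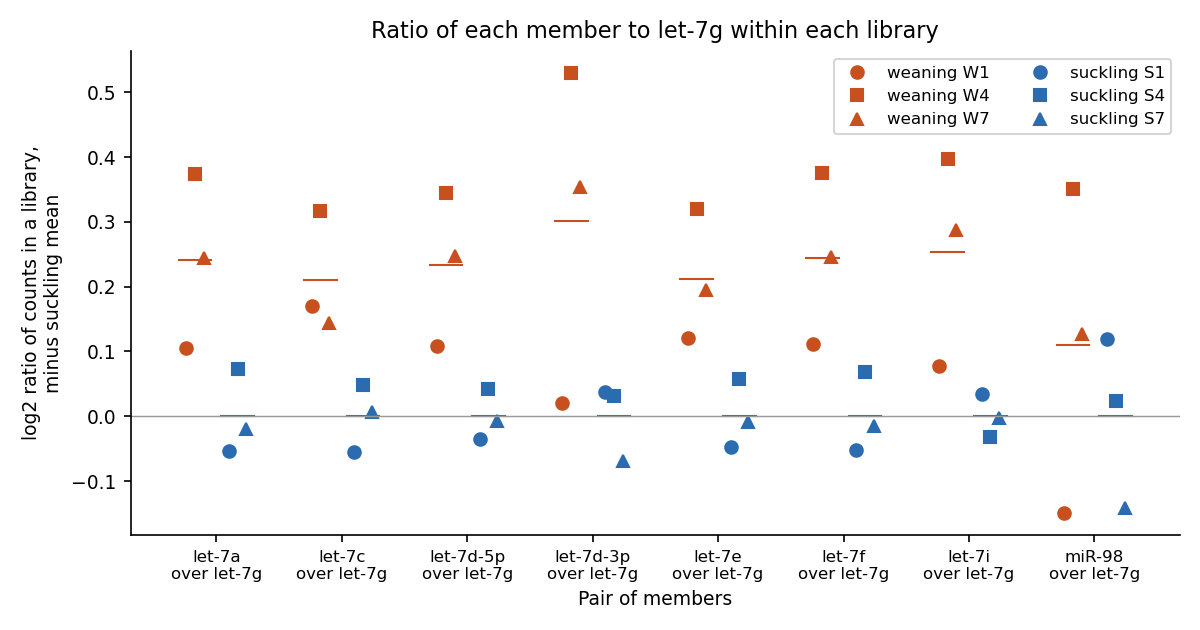
log2 ratio of each other member's count to that of let-7g in the same library, minus the mean of the suckling libraries; weaning libraries are orange and to the left, suckling libraries blue, and short lines are group means. For 6 of the 8 members the weaning points all lie above the suckling points, and W4 is the highest for each of the 8; the mean difference for let-7i is 0.25.

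let-7d gave both arms of its hairpin. The 5p arm, the one with the let-7 seed, made up 91.1% of both arms in W1 (Wilson 95% interval 90.0 to 92.1), 89.4% in W4 (88.3 to 90.4) and 89.9% in W7 (88.7 to 91.0). In suckling libraries it made up 90.1% in S1 (88.8 to 91.3), 90.6% in S4 (89.4 to 91.7) and 90.9% in S7 (89.8 to 91.9). The groups overlapped, the weaning mean was lower by 0.43 percentage points, and the exact permutation test gave p = 0.5. Both arms together had 2118 to 3459 reads a library.

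All 9 members together took 3.67%, 4.48% and 3.33% of the library total in W1, W4 and W7, against 2.79%, 2.76% and 3.08% in S1, S4 and S7. Reads shared between members may be counted more than once in that sum. As a measure of part of the family, let-7a, let-7g, let-7i and miR-98 were summed, since no exact read of these was listed at another of them. These 4 took 1.65%, 2.02% and 1.52% of the library total in W1, W4 and W7, against 1.29%, 1.25% and 1.41% in S1, S4 and S7. The weaning mean was higher by 0.41 percentage points, and the groups did not overlap (exact permutation test, two-sided, p = 0.1, the smallest possible). On the library total 44.5% of the 290 sequences tested likewise had all weaning libraries above all suckling libraries. Divided by the clean reads of each library, the sum was 1.721%, 1.913% and 1.503% in W1, W4 and W7, against 1.380%, 1.361% and 1.529% in S1, S4 and S7. On that scale W7 lay below S7, so the groups overlapped, and the weaning mean was higher by 0.29 percentage points (exact permutation p = 0.2). With miR-143-3p, miR-192 and miR-215 taken out of the library total, the same sum was 4.81%, 4.35% and 4.03% in W1, W4 and W7, against 4.55%, 4.61% and 4.33% in S1, S4 and S7. The groups overlapped here too and the weaning mean was lower by 0.099 percentage points (exact permutation p = 0.8). The direction of the share of these 4 members thus depends on whether those 3 sequences are counted in the total.

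Marker miRNAs of cell types moved between the same libraries. The 6 epithelial miRNAs examined, all detected and led by miR-192 and miR-215, are those that a jejunal sample should hold. They summed to 478312, 225509 and 306745 CPM in W1, W4 and W7, against 579081, 547848 and 542637 in S1, S4 and S7. The sum was lower in every weaning library than in any suckling library, as were 3.1% of all 290 sequences. It was lowest in W4, the library in which the members' share was highest. Both are parts of the same library total, so a lower epithelial sum leaves a larger share for all other sequences. The 6 leukocyte miRNAs, all detected and among them miR-142-3p, miR-150 and miR-155-5p, summed to 3483, 7291 and 6202 CPM in W1, W4 and W7, against 2928, 2620 and 4595 in S1, S4 and S7. The 6 smooth muscle miRNAs found of 7 (miR-133a-3p was not found as a sequence of its own) summed to 201852, 325053 and 330341 in W1, W4 and W7, against 166477, 205028 and 159347 in S1, S4 and S7. On the library total W4 and W7 had the highest leukocyte and smooth muscle sums of the 6 libraries. In both, let-7g was low on the TMM scale. The TMM-scaled leukocyte sum was 3363, 5119 and 5562 in W1, W4 and W7, against 3539, 3284 and 4987 in S1, S4 and S7. Of its miRNAs, miR-342 had an edgeR log2 fold change of -0.20 in W4, with the others above 0. The TMM-scaled smooth muscle sum was 228210 in W4 and 257021 in S4. That sum includes miR-143-3p, 1 of the 3 sequences with the most reads. In W7 the edgeR log2 fold changes of its miRNAs differed in sign. They were 0.50 for miR-143-3p, 0.61 for miR-1 and 0.041 for miR-133b, against -0.25 for miR-143-5p, -0.085 for miR-145-5p and -0.031 for miR-145-3p. The 3 erythroid miRNAs, all detected, summed to 458.4, 436.6 and 408.3 TMM-scaled CPM in W1, W4 and W7, against 545.6, 611.4 and 655.1 in S1, S4 and S7. On that scale they lay lower in every weaning library than in any suckling library, as did let-7g and 10% of all 290 sequences. On the library total their groups overlapped. The 3 neuronal miRNAs, all detected, summed to 58.5, 111.5 and 63.7 CPM on the library total in W1, W4 and W7, against 40.3, 45.6 and 41.1 in S1, S4 and S7. The 2 endothelial miRNAs, both detected, summed to 6103, 7520 and 5890 CPM in W1, W4 and W7, against 4454, 3849 and 5725 in S1, S4 and S7. These last sums were higher in every weaning library than in any suckling library, as were 44.5% of all 290 sequences. On the TMM scale the groups of both sums overlapped. The part of these cell types in the let-7 values was not tested. Liver miRNA miR-122, 1 marker, stood at 10.5 to 23.2 CPM over all libraries.

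miR-99a, miR-99b, miR-100, miR-125a and miR-125b are the usual cluster partners of let-7c, let-7e and let-7a. At day 1, 3 of the 5 were at least 2-fold higher in W1 than in S1 on the library total, beside the 6.11% of all sequences given above. miR-100, with 7184 reads in W1 and 2621 reads in S1, had a log2 ratio of 1.41 (interval 1.34 to 1.47), miR-99a one of 1.32 (1.24 to 1.40) and miR-99b one of 1.02 (0.964 to 1.07). The highest of the let-7 members at day 1 was at 0.48. On the TMM scale miR-100 alone stayed past 2-fold, at 1.08, beside 2.18% of all sequences. At day 4 the partners were at 0.37 to 0.70 on the library total and 0 of 5 passed 2-fold, beside 33.6% of all sequences higher. At day 7 miR-125a, with 6620 reads in W7 and 3643 reads in S7, was the only one past 2-fold, at 1.14 (interval 1.08 to 1.20), where 6.75% of all sequences were. let-7e, its neighbour in the annotation, was at 0.096. On the TMM scale miR-125a was at 0.86 and let-7e at -0.18. There 0 of 5 partners passed 2-fold, beside 3.38% of all sequences higher. In the fits against the 3 suckling libraries edgeR called 0 of the 5 partners in W1, W4 or W7 or in the 3 weaning libraries together, with adjusted p of 0.290 to 0.996. The calls over all sequences in those fits were 0%, 2.76%, 1.72% and 0%.

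**Figure D5:**
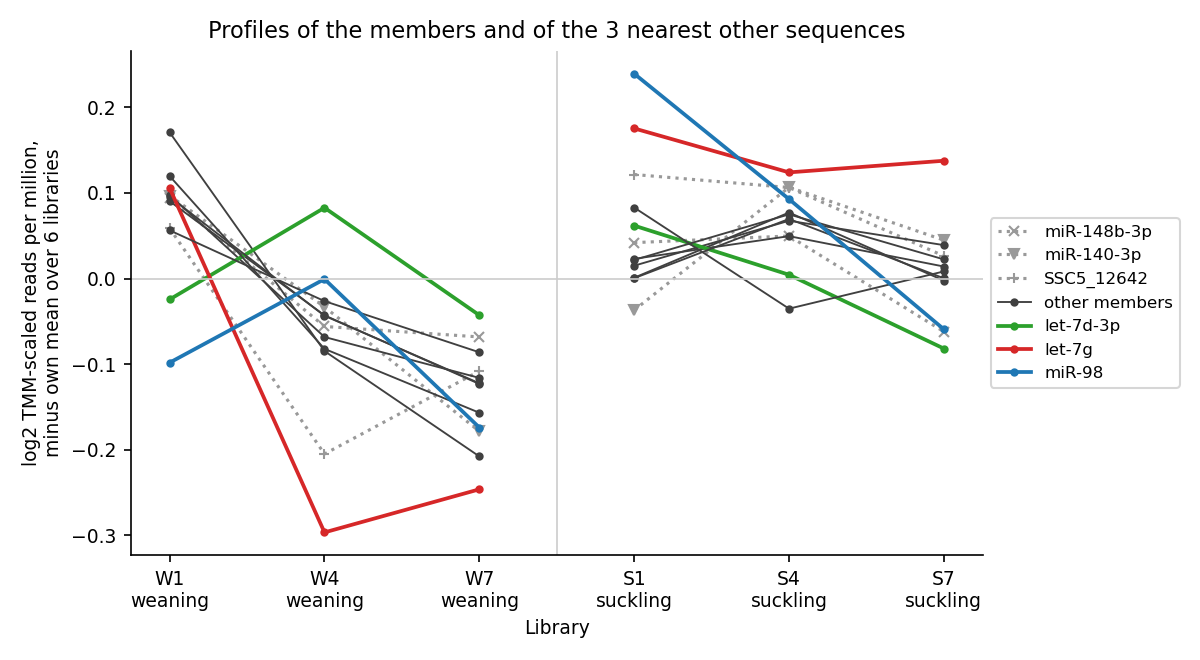
log2 TMM-scaled CPM of the members in each library, each minus its own mean over the 6 libraries, with weaning libraries on the left; dotted grey lines are the 3 other sequences nearest to the members' mean. let-7g falls to -0.30 in W4 and -0.25 in W7, let-7d-3p is above its mean in W4 at 0.083, and miR-98 is highest in S1 at 0.24.

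The members' profiles over the 6 libraries were compared on the TMM scale, with the limit that let-7a, let-7c, let-7d-5p, let-7e and let-7f are not separate measurements. Likeness was measured as the root mean square difference from the members' mean profile in log2 CPM, each profile centred on its own mean. let-7d-5p (0.025), let-7e (0.032), let-7a (0.032) and let-7f (0.033) were nearest to the mean, which they help to make up. Their listed reads overlap, so how close they lie to one another cannot be read as likeness between separate miRNAs. let-7i was at 0.047 and let-7c at 0.057, while let-7d-3p (0.092), miR-98 (0.11) and let-7g (0.13) were farthest. Among 144 other sequences with at least 100 reads in every library, which do not enter the mean, the median was 0.20. Of them 21.5% lay nearer than let-7g. The 3 nearest were miR-148b-3p (0.045), miR-140-3p (0.055) and the unannotated candidate SSC5_12642 (0.067), from 6 libraries each. miR-148b-3p, for example, had 528.2, 475.9 and 471.9 TMM-scaled CPM in W1, W4 and W7, against 509.3, 512.1 and 473.9 in S1, S4 and S7.

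Of the sequences that are no member, 1 had the let-7 seed, a candidate that the study's list names SSC16_5095 and SSC16_5096. It is shown because its bases 2 to 8, in capitals, are those of the family.
SSC16_5095/SSC16_5096: uGAGGUAGuaggcugugugg
Over its 20 bases it differed from let-7a by U13C, A17G and A19G. It had 106, 126 and 76 reads in W1, W4 and W7, against 82, 107 and 96 in S1, S4 and S7. On the TMM scale these were 22.0, 19.6 and 15.3 CPM in W1, W4 and W7, against 22.1, 25.2 and 19.4 in S1, S4 and S7, and the groups overlapped.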

How the data were processed

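Jejunal small RNA was sequenced in 6 libraries, each a pool of 4 piglets. The authors removed adapters, low-quality reads and reads outside their length limits, aligned the rest to an older draft genome (Sscrofa 9.2) with Bowtie (the submitters' processing notes name version 0.12.2) and compared them with miRBase. What the authors deposited are unscaled counts of reads, with a mature sequence and its count on each row, and some sequences stand on several rows. The sources used here do not say how alignments became counts. Mapping to the genome allowed no mismatches. No limit is stated for the comparison with miRBase, and the read lists hold reads with 1 mismatch.

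Names came from equal counts in the study's list of known miRNAs. A sequence on several rows was used once, at its highest count. Groups were compared with edgeR 4.0.16 (R 4.3.3, quasi-likelihood, TMM, Benjamini-Hochberg over 290 sequences with at least 10 reads in 3 libraries). DESeq2 1.42.0, other scalings, thresholds and filters, rows averaged, libraries left out and the day as a block were alternatives. Ratios by day used sequences with at least 50 reads in the pair, with exact conditional binomial intervals of 95%. Exact permutation tests were run in Python 3.11.15 with scipy 1.17.1. The study used FPKM values and a t-test, which 1 library per condition does not allow here. Members, marker lists and cluster partners were chosen with earlier results of these data known. Named miRNAs were the members, the 5 partners, the 3 sequences of at least 100 reads nearest to the members' mean profile, and any other sequence with the seed. Calls depend on the counts behind them, which summed to 4441416 to 5373146 a library. PCR reads are not independent molecules, so the intervals cover counting error only.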

Additional observations from a re-analysis of the deposited data

Results flagged for a closer look

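let-7g went in opposite directions on different days on the library total. Its log2 ratio of weaning over suckling was 0.25 at day 1 and 0.42 at day 4, with both counting intervals above 0, and -0.11 at day 7, with the interval below 0. The ratio at day 1 exceeded that at day 7 by 0.36 on the log2 scale, and the ratio at day 4 exceeded that at day 7 by 0.52. The fall after day 4 was not particular to let-7g. The median of all sequences was 0.28, 0.83 and 0.21 at days 1, 4 and 7. Among other members, let-7i was at 0.85 at day 4 and 0.18 at day 7, and let-7a at 0.72 and 0.15. Each day has 1 library per group, so the difference between days was not tested. On the TMM scale let-7g was below 0 on all 3 days, at -0.070, -0.42 and -0.38. With 3 libraries a group, no library was tested for standing apart from its group.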

How the results depend on the processing

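The number of members called stayed at 0 in the comparison of all weaning with all suckling libraries under all alternatives, while the calls over all sequences numbered 0 to 12 (10 of 290 in DESeq2, 12 of 286 without W1). It was also 0 under all alternatives for W1, with 0 sequences called, and for W7, with 0 to 24 sequences called (22 of 290 in DESeq2, 24 of 287 without S1 and 0 of 285 without S4). For W4 only the library total in place of TMM changed the number of members called, as given above beside the share of all sequences. The 1.5-fold threshold gave 8 members past it in W4 against S4, beside 70.5% of all sequences. No other scaling, nor averaging the rows of a sequence, took a member past 2-fold on any day. Beside that, 2.18% to 34% of all sequences were higher and 2.62% to 9.02% lower by that much. On the library total the log2 fold changes of all weaning against all suckling libraries turned positive, at 0.44 for let-7a, 0.41 for let-7c, 0.43 for let-7d-5p, 0.41 for let-7e, 0.44 for let-7f, 0.19 for let-7g, 0.45 for let-7i and 0.32 for miR-98, and those of let-7g were 0.30 for W4 and 0.0017 for W7. Without the filter on low counts they were 0.036 for let-7a, 0.011 for let-7c, 0.029 for let-7d-5p, 0.0092 for let-7e, 0.040 for let-7f and 0.049 for let-7i. Leaving out 1 library at a time gave ranges of -0.062 to 0.034 for let-7a, -0.13 to 0.018 for let-7c, -0.067 to 0.024 for let-7d-5p, -0.026 to 0.080 for let-7d-3p, -0.11 to 0.0059 for let-7e, -0.056 to 0.035 for let-7f and -0.042 to 0.026 for let-7i. let-7g kept its sign there, at -0.36 to -0.15, the value nearest 0 being that without W4, and so did miR-98, at -0.26 to -0.11. The let-7i to let-7g difference stayed between 0.18 and 0.34 when any library was left out. The difference in the summed share of let-7a, let-7g, let-7i and miR-98 stayed between 0.27 and 0.52 percentage points. That in the let-7d 5p share stayed between -0.90 and -0.068 percentage points. Without the 3 most abundant sequences in the total, the difference in the summed share reversed to -0.099 percentage points. The causes of these changes were not tested.

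Libraries of the same day did not deviate together (correlations of -0.30, 0.053 and 0.031 at days 1, 4 and 7 over 248 miRNAs). The pools of a day were of the same age, and the paper drew both feeding groups from the same 4 litters. With 1 pool per condition these correlations cannot settle whether the day pairs the libraries. With the day as replicate block edgeR called 0 members and gave let-7g -0.29. A paired sign permutation leaves the let-7i to let-7g difference at 0.25 by construction, and its smallest p of 0.25 could not pass a threshold. Of 135 ratios by day under other scalings or with rows averaged, 100 left their counting interval. let-7d-3p, with 209 to 366 reads a library, has the widest intervals, and with 1 pool per condition the spread between piglets is in none of them.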
